A study of Mus musculus with 48 samples.

Results

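Mice carrying 1 functional copy of Nr1h3, the gene of the liver X receptor LXRα, were compared with their wild-type littermates by sequencing liver messenger RNA. The comparison takes the 8 livers whose genotype label is KO:HET (LXRα+/-) and the 8 labelled KO:WT (LXRα+/+), so 16 of the 48 livers of the series and 16 of the 24 of its knockout study. The other 8 livers of the knockout study, KO:HOM (LXRα-/-), carry no intact copy. They entered the same fit and their values are set beside the heterozygous ones. Every mouse received a western diet, rich in fat and cholesterol, for 8 weeks from the age of 8 weeks, before the liver was taken and frozen. The strain label is C57Bl/6J for every liver. The study describes the knockout line as first kept on a mixed strain, backcrossed to C57BL/6 and bred from heterozygous pairs. Livers are named by genotype and animal number.

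LXRα is a nuclear receptor that binds oxysterols, derivatives of cholesterol, and sits on DNA as a heterodimer with the retinoid X receptor RXR. It recruits coactivators when a ligand is bound and corepressors when none is. In the liver it is known for switching on sterol export through the Abcg5 and Abcg8 pair, bile acid synthesis in mice, and fatty acid synthesis through Srebf1, and in macrophages it restrains inflammatory genes and maintains the resident Kupffer cell programme.

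Reads assigned to genes numbered between 5332897 and 16803733 per liver over the 16 livers (median 16078762). Heterozygous animal 3 had 5332897, and the other 7 heterozygous livers had between 15700000 and 16500000. Homozygous animal 17 was the other shallow liver of the knockout study, with 5376226. No pair of livers of a genotype held identical counts. The summed normalised read counts (CPM, with library sizes scaled by TMM) of 10 hepatocyte markers had a median of 94249 in wild-type and 96077 in heterozygous livers, so the tissue label was borne out in both genotypes. Sex is not given in the labels. Transcripts of 4 Y-linked genes were counted in every liver of the knockout study and Xist reached at most 7 reads in any of them. In bulk liver, fewer cells of a type and less RNA per cell cannot be told apart.

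Nr1h3 itself was read first. It lies on the minus strand of chromosome 2 of GRCm39, from 91014394 to 91033417, and its span touches Acp2 on the opposite strand, the long non-coding RNA Gm13783 on the same strand and the small RNA Gm23390. Wild-type livers had between 76.4 and 102 CPM of Nr1h3 (median 85.7), and heterozygous livers had between 45.7 and 62.5 CPM (median 55.7). Every heterozygous liver lay below every wild-type liver. The means were 88.4 ± 8.32 CPM in wild-type and 55.8 ± 5.56 CPM in heterozygous livers (SD, n = 8 each). The log2 fold change was -0.66 (SE 0.07, 95% interval -0.80 to -0.53, edgeR quasi-likelihood test, Benjamini-Hochberg adjusted p = 5.3e-06). An exact two-sided permutation test over the 16 livers gave p = 0.000155, the smallest that 8 against 8 livers allow. Homozygous livers still had between 23.4 and 29.4 CPM of the gene, and counts per gene do not say from which exons these reads came. The heterozygous mean was 63.2% and the homozygous mean 28.9% of the wild-type mean. The value midway between the wild-type and homozygous means is 57.0 CPM, against 55.8 CPM in heterozygous livers. On the log2 scale the heterozygous level lay 0.23 above the midpoint (unadjusted p = 0.00053, edgeR adjusted p = 0.38). Acp2, a lysosomal acid phosphatase whose annotated span overlaps that of Nr1h3, had a log2 fold change of -0.02 (95% interval -0.16 to 0.12). Gm13783, which shares the strand of Nr1h3, had at most 9 reads in any heterozygous and 4 in any wild-type liver. Reads in the overlap of these genes on 1 strand can be given to neither, so the Nr1h3 count is uncertain there.

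**Figure D1:**
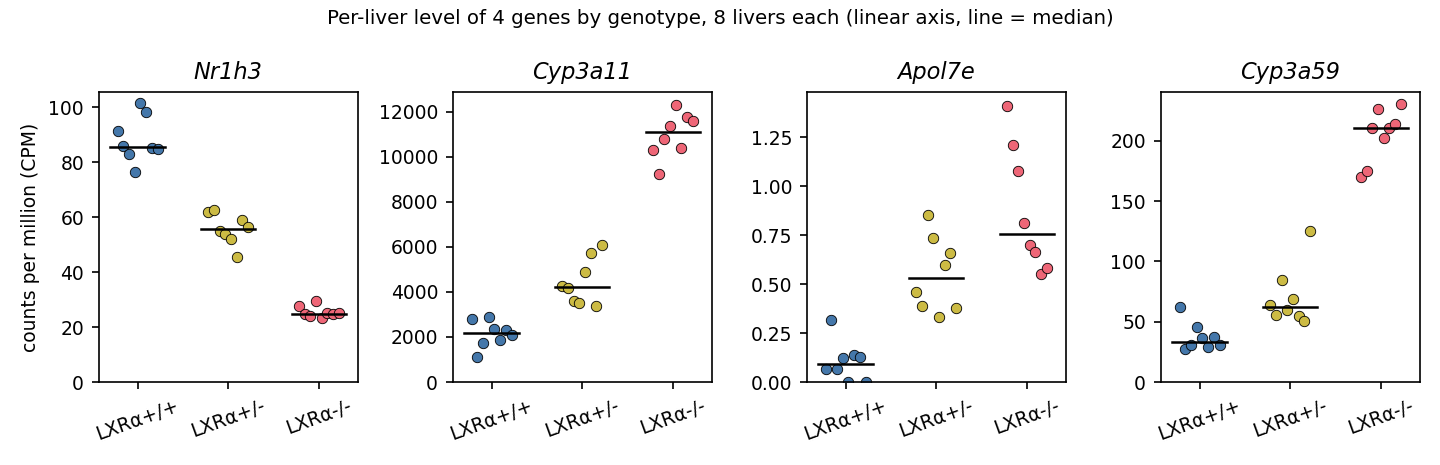
Normalised read count (CPM, TMM-scaled, linear axes starting at 0) of Nr1h3, Cyp3a11, Apol7e and Cyp3a59 in each liver of the knockout study, by genotype. Lines mark the median of 8 livers. Heterozygous medians lie between those of the other genotypes. Heterozygous livers are wholly apart from wild-type for Nr1h3, Cyp3a11 and Apol7e, though for Apol7e they overlap the homozygous livers (0.552 to 1.41 CPM), while for Cyp3a59 the lowest heterozygous liver (50.7 CPM) lies below the highest wild-type liver (62.1 CPM).

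Across the transcriptome, the loss of 1 allele changed few genes past the threshold. Of 14296 genes tested, 3 passed an adjusted p of 0.05, which is 0.021% of the genes tested. These were Nr1h3, the 1 lower gene (0.00699%), and Cyp3a11 and Apol7e, the 2 higher ones (0.014%). The same 3 genes were the only ones whose heterozygous and wild-type livers did not overlap (0.021%). At an unadjusted p under 0.05 there were 819 genes (5.73%), 441 higher and 378 lower. In the same fit 2410 genes (16.9%) differed between homozygous and wild-type livers, 1520 higher and 890 lower, and the genotypes did not overlap for 373 genes (2.61%). Both comparisons share the wild-type livers, so the homozygous values below are given beside the heterozygous ones and not as separate support. DESeq2 called 11 genes and limma voom called 4.

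Cyp3a11 encodes a major drug- and steroid-metabolising cytochrome P450 of mouse liver. It lies on chromosome 5 of GRCm39 from 145791236 to 145816867. Wild-type livers had between 1097 and 2870 CPM (median 2190), and heterozygous livers between 3353 and 6091 CPM (median 4226). Each heterozygous liver exceeded each wild-type liver. The log2 fold change was 1.06 (SE 0.15, 95% interval 0.74 to 1.38, edgeR adjusted p = 0.0026), a 2.08-fold rise. In homozygous livers the median was 11077 CPM and the log2 fold change 2.36. On the log2 scale the heterozygous level differed from the midpoint of the other genotypes by -0.12 (unadjusted p = 0.37), while on the linear scale the midpoint was 6548 CPM and the heterozygous mean 4450 CPM. The call was kept without any one of the 16 livers, with adjusted p between 0.00092 and 0.0092, but in a fit of the 16 livers alone the adjusted p was 0.072.

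Apol7e, an apolipoprotein L family member on chromosome 15 of GRCm39 from 77583057 to 77603485, was at the edge of detection. It had between 0 and 5 reads in each wild-type liver (13 in all) and between 2 and 14 in each heterozygous liver (66 in all). In CPM, wild-type livers lay between 0 and 0.319 and heterozygous livers between 0.334 and 0.854. The genotypes did not overlap, but the gap between them was narrower than 1 read. The log2 fold change was 2.32 (SE 0.46, edgeR adjusted p = 0.034), and 2.94 in homozygous livers. The call was lost in 10 of the 16 fits that left out 1 liver, where the adjusted p reached 0.089. It was also lost without the low-count filter (0.065), in all 48 livers fitted together (0.16) and without the livers under 10000000 reads (0.066). Apol7e and Cyp3a11 belong to families of closely similar genes, so their counts are uncertain where reads match more than 1 member. Apol7e passed the low-count filter with the homozygous livers in the fit. In the 16 wild-type and heterozygous livers alone it did not pass and was not tested.

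The promoters of the 3 genes that passed the threshold are shown here for their direct repeats of AGGTCA. The repeat with a spacer of 4 bases, called DR4, is an element that LXR and RXR heterodimers are known to bind. The same repeat with a spacer of 3, DR3, is known from the vitamin D receptor. Each runs 5′ to 3′ on the strand of its gene, from 250 bases before to 50 after the RefSeq start of transcription, on GRCm38.p6. Capitals mark the DR4 match. The windows are chr2:91195067-91195366 for Nr1h3 (minus strand, the first of 2 listed starts), chr5:145879805-145880104 for Cyp3a11 (minus strand) and chr15:77698639-77698938 for Apol7e (plus strand).
Nr1h3: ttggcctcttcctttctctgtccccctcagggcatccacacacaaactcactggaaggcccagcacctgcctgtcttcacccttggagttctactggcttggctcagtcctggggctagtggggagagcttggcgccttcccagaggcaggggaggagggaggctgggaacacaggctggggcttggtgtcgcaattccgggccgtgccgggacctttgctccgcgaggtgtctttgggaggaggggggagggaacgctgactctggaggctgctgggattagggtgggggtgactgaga
Cyp3a11: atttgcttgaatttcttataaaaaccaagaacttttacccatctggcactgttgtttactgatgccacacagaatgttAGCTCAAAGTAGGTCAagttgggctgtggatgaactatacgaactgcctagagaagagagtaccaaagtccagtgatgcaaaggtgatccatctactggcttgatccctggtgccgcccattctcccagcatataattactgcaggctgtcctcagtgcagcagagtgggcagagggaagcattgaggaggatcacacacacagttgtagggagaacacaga
Apol7e: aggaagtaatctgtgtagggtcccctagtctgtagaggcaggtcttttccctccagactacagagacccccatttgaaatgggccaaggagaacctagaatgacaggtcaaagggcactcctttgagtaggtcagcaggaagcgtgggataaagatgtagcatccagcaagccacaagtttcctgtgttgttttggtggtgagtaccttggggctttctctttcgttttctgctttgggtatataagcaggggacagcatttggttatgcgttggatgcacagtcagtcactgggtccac

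Both strands were searched for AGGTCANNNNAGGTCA and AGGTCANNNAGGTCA with at most 1 mismatch outside the spacer. The DR4 was found in 24 of 13295 promoters of tested genes (0.181%) and the DR3 in 13 (0.0978%). The Cyp3a11 window held 1 DR4 match, with 1 mismatch, from -172 to -157 relative to the start. The windows of Nr1h3 and Apol7e held neither. A match is a description of these letters and not a site shown to be bound by LXR or any other receptor.

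A few genes stood just short of the threshold. Cyp3a59, a neighbour of Cyp3a11 in the same P450 cluster, had between 27.3 and 62.1 CPM in wild-type (median 33.4) and between 50.7 and 125 CPM in heterozygous livers (median 61.8). Of the 8 heterozygous livers 4 exceeded all wild-type livers. Its log2 fold change was 0.92 (95% interval 0.57 to 1.27, edgeR adjusted p = 0.055), and it passed the threshold in DESeq2 and limma voom. Slco1a4, an organic anion uptake transporter of hepatocytes, had between 39.5 and 67.3 CPM in wild-type and between 64.5 and 165 CPM in heterozygous livers. Animal 6 was the single heterozygous liver not above all wild-type livers. Its log2 fold change was 0.76 (adjusted p = 0.094). Ccr3, the eotaxin receptor of eosinophils, had 0 reads in all wild-type livers and 49 reads over the heterozygous livers, where the shallow animal 3 alone had 0. Against a floor of 3 reads over the wild-type group, its level was at least 17.5-fold higher (adjusted p = 0.068). Ccr3 too passed the low-count filter with the homozygous livers, and it was not tested in the 16 livers alone.

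Genes of other kinds also stood short of the threshold. Gm5524, a predicted gene, had a log2 fold change of 0.40 (adjusted p = 0.057). Il2rb, a receptor subunit for interleukins 2 and 15 on T and NK cells, had between 0.724 and 1.43 CPM in wild-type and between 1.12 and 5.37 CPM in heterozygous livers, with a log2 fold change of 1.40 (adjusted p = 0.20). Parp11, a mono-ADP-ribosyltransferase, had a log2 fold change of 0.66 (adjusted p = 0.21). DESeq2 called Ccr3, Slco1a4, Gm5524, Il2rb and Parp11. Among genes not called, the 5 negative values with the smallest p were those of Fabp5, a fatty acid binding protein, at -1.58, the transcriptional repressor Bcl6b at -0.95, the mitochondrial ribosomal protein Mrpl4 at -0.29, the spindle adaptor Insc at -0.49 and the endothelial protocadherin Pcdh12 at -0.69. Their adjusted p lay between 0.38 and 0.49. Fabp5 reached 48.1 CPM in a wild-type liver and at most 9.0 CPM in a heterozygous one, with the ranges overlapping.

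How small a change these 16 livers could have shown was computed from each gene's standard error. The median standard error of a heterozygous against wild-type log2 fold change was 0.128 over 14295 genes. With 80% power, the median gene needed a change of 1.30-fold to reach an unadjusted p of 0.05, and 1.82-fold to reach the p that a single gene needs after adjustment over all genes. This size varied with expression. Genes with a mean log2 CPM below 0 needed 5.37-fold after adjustment and those from 0 to 2 needed 3.28-fold, while those from 4 to 6 needed 1.47-fold those from 6 to 8 needed 1.44-fold and those at 8 or above 1.58-fold. A 2-fold change was detectable after adjustment for 8089 genes (56.6%).

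**Figure D2:**
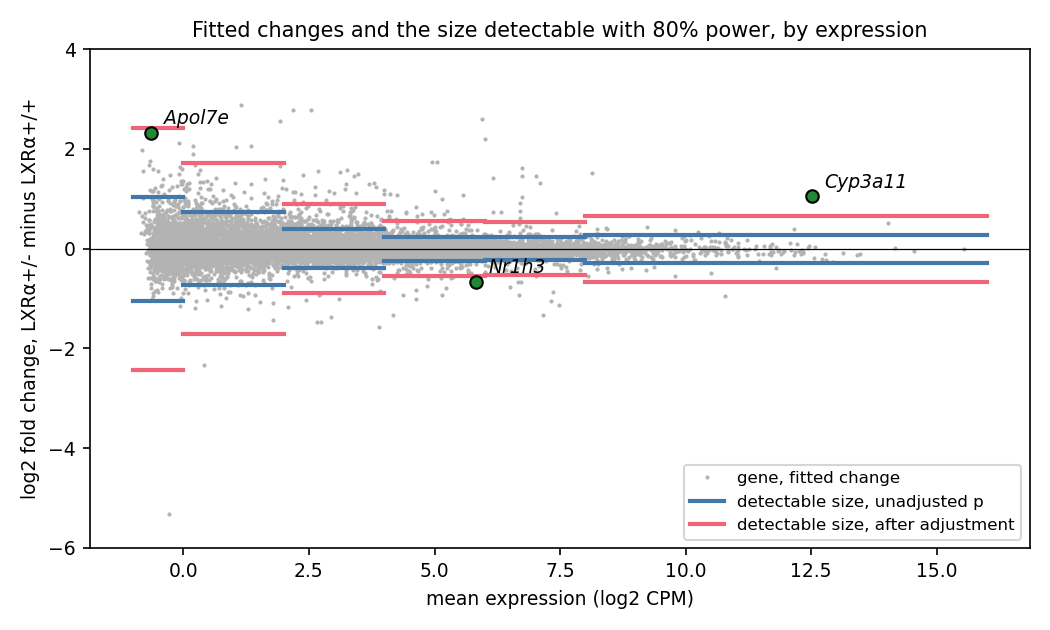
Heterozygous minus wild-type log2 fold change of each tested gene against its mean log2 CPM, with the genes past the threshold marked. The lines give the median size detectable with 80% power at an unadjusted p of 0.05 and after adjustment, in bins of expression, and they close in from 5.37-fold below a log2 CPM of 0 to 1.44-fold between 6 and 8 and widen to 1.58-fold at 8 and above, after adjustment.

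The intervals state what stayed the same, and to what precision. The 95% interval lay wholly within 2-fold of no change for 12710 genes (88.9%) and within 1.5-fold for 9990 genes (69.9%). Among the 518 genes with a mean log2 CPM of at least 8, which include the abundant secreted and metabolic products of hepatocytes, it lay within 1.5-fold for 467 (90.2%). Below a log2 CPM of 0 it did so for 18 of 1078. A fitted change of 2-fold or more was seen for 143 genes, 119 higher and 24 lower, of which 72 had a mean log2 CPM below 1, and 20 genes had an interval wholly beyond 1.5-fold. The median of all fitted changes was -0.00. A heterozygous effect at the midpoint of the homozygous one would often have been too small to see. Over the 2410 genes that differed in homozygous livers the median size of the homozygous log2 change was 0.74 and its midpoint 0.37. That midpoint change reached the size detectable at an unadjusted p for 250 genes (10.4%) and after adjustment for 4 (0.166%), 2 of which were called.

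**Figure D3:**
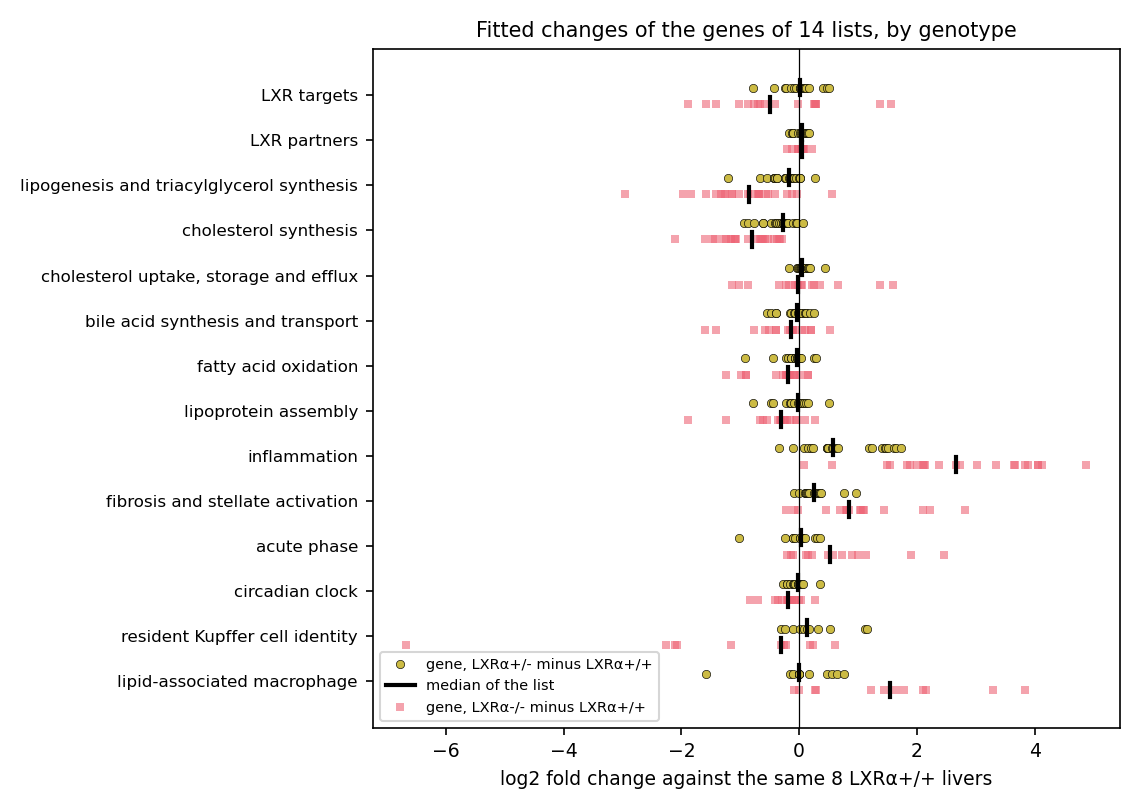
Log2 fold change against wild-type of the members of 14 hand-written gene lists, in heterozygous livers (circles) and homozygous livers (squares), with the median of each list. Heterozygous medians lie between -0.28 (cholesterol synthesis) and 0.57 (inflammation), and homozygous medians between -0.85 (lipogenesis) and 2.67 (inflammation).

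The genes of LXR biology were described by 14 lists with 231 tested members. The lists were chosen with earlier results of these data known, so shares set beside those of all genes are descriptions and not tests. No member passed the threshold in heterozygous livers with edgeR's quasi-likelihood test, DESeq2 or limma voom, and 22 (9.52%) had an unadjusted p under 0.05 with edgeR, against 5.73% of all genes tested. For 110 of the 231 the interval lay within 1.5-fold and for 166 within 2-fold. Their median was 0.00, against -0.00 over all genes. In homozygous livers edgeR called 108 of the 231, against 16.9% of all genes tested.

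The receptor's partners had the smallest median standard error of the 14 pathway lists (0.087). All 14 of them, the paralog LXRβ, the RXRs, corepressors and coactivators, had intervals within 1.5-fold. Nr1h2, the gene of LXRβ, had between 26.5 and 37.6 CPM in wild-type and between 29.4 and 40.3 CPM in heterozygous livers, with a log2 fold change of 0.09 (95% interval -0.07 to 0.25). The ranges overlapped almost throughout, so a rise of the paralog beyond that interval was not seen. Rxra, the main hepatic RXR, had 0.06 (-0.10 to 0.22) and the corepressor Ncor1 0.03 (-0.15 to 0.21). The coactivator Ncoa2 had the smallest p of the group, with 0.17 (0.07 to 0.27, adjusted p = 0.59), and Tbl1x, a corepressor subunit, had 0.15.

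Direct LXR targets had values on both sides of 0, from -0.79 to 0.51. Of 18, 0 passed the threshold with any of the 3 tools and 1 had an unadjusted p under 0.05, against 5.73% of all genes. The median was 0.02, 9 had an interval within 1.5-fold and 14 within 2-fold, and the median member needed a 2.47-fold change to be called. In homozygous livers 4 were called higher and 9 lower, against 1520 higher and 890 lower of all 14296 genes. Abcg5, which exports sterols into bile together with Abcg8, had between 202 and 415 CPM in wild-type (median 304), between 194 and 338 CPM in heterozygous (median 317) and a median of 157 CPM in homozygous livers. All heterozygous livers but animal 15 lay within the wild-type range. Its log2 fold change was 0.02 (95% interval -0.29 to 0.34) in heterozygous and -1.03 in homozygous livers. The heterozygous level lay 0.54 above the log2 midpoint (unadjusted p = 0.00034, adjusted p = 0.30), and that of Abcg8 lay 0.53 above it (adjusted p = 0.36). Abca1, which loads cholesterol onto apolipoproteins, had 0.11 (-0.01 to 0.23) in heterozygous and 0.25 in homozygous livers.

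Pltp, the plasma phospholipid transfer protein, had the lowest value among the targets. Wild-type livers had between 28 and 98.6 CPM (median 61.8), heterozygous between 16.7 and 57.1 CPM (median 32.4) and homozygous a median of 14.6 CPM. Animals 2, 4 and 15 fell under all wild-type livers and the other 5 lay within their range. The log2 fold change was -0.79 (95% interval -1.25 to -0.32, unadjusted p = 0.0019, adjusted p = 0.60), and a 2.89-fold change would have been needed after adjustment. For the 18 targets, 0 of the RefSeq promoter windows held the DR4.

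The lipogenic genes showed how wide the spread between mice was. Srebf1, the transcription factor through which LXRα drives fatty acid synthesis, had between 409 and 984 CPM in wild-type (median 539) and between 349 and 612 CPM in heterozygous livers (median 553). Its log2 fold change was -0.23 (95% interval -0.59 to 0.13), and -0.70 in homozygous livers. The heterozygous value was -0.29 without wild-type animal 14 and -0.09 without wild-type animal 32. Fasn, the fatty acid synthase, ranged from 172 to 1743 CPM in wild-type and from 190 to 1201 CPM in heterozygous livers. These ranges overlapped throughout, and its log2 fold change of -0.42 had an interval from -1.30 to 0.46. That value was -0.61 without heterozygous animal 6 and -0.18 without wild-type animal 23. Scd1, which desaturates stearate, had 0.01 (-0.92 to 0.93). Of the 24 genes of fatty acid and triacylglycerol synthesis, 0 passed with any of the 3 tools and 0 had an unadjusted p under 0.05. The median was -0.17, with 20 negative and 4 positive values, and it was -0.27 without wild-type animal 14 and -0.10 without wild-type animal 34. In homozygous livers 17 were called lower, against 890 of all 14296 genes. The median gene of the list needed a 3.89-fold change to be called, so changes of the size of the median could not have been seen one gene at a time.

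Cholesterol synthesis genes, the targets of SREBP2, had 23 negative and 1 positive value among 24, with a median of -0.28 against -0.00 over all genes. None passed the threshold with the 3 tools. With edgeR, 6 (Cyp51, Fdps, Mvk, Mvd, Tm7sf2 and Hsd17b7) had an unadjusted p under 0.05, all lower, against 378 of all 14296 genes. In homozygous livers 17 of the 24 were called lower, against 890 of all 14296 genes. Cyp51, the lanosterol demethylase, had between 22.2 and 61.7 CPM in wild-type (median 43.8), between 17.8 and 38.7 CPM in heterozygous (median 31) and a median of 15.5 CPM in homozygous livers. Heterozygous animals 2 and 16 lay under all wild-type livers. The log2 fold change was -0.61 (95% interval -1.08 to -0.13, adjusted p = 0.83). Fdps, the farnesyl diphosphate synthase, had -0.86 (adjusted p = 0.83), with overlapping ranges. The genes of the list share a regulator and may vary together between livers, so their common sign is no count of independent observations.

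The other metabolic lists lay near 0. Sterol uptake, storage and efflux genes had a median of 0.05 over 17 genes, with 14 intervals within 1.5-fold. Bile acid synthesis and transport genes had a median of -0.04 over 18 genes. Cyp7a1, the rate-limiting enzyme of bile acid synthesis, ranged from 117 to 300 CPM in wild-type and from 126 to 301 CPM in heterozygous livers, with -0.09 (95% interval -0.49 to 0.32) against -0.77 in homozygous livers. For Cyp27a1, which starts the alternative pathway, the value was -0.08 (-0.34 to 0.19). Fatty acid oxidation genes had a median of -0.03 over 20 genes, with Ppara at 0.02 (-0.26 to 0.30) and Cpt1a at -0.02 (-0.28 to 0.25). Among 17 lipoprotein genes the median was -0.02, with Apob at 0.05 (-0.14 to 0.24) and Mttp at -0.15 (-0.33 to 0.03). Acute phase genes had 0.03 over 14 genes and circadian clock genes -0.02 over 17 genes. In these 6 lists no gene was called in heterozygous livers by edgeR's quasi-likelihood test, DESeq2 or limma voom. With edgeR, 4 separate genes had an unadjusted p under 0.05, against 5.73% of all genes.

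The heterozygous level was also set against the midpoint of the other genotypes. A direct test of the heterozygous mean against the log2 midpoint of the wild-type and homozygous means called 4 genes (0.028% of those tested), all higher than the midpoint and nearer to wild-type. At an unadjusted p under 0.05 there were 1005 genes (7.03%), 474 higher and 531 lower than the midpoint, of which 837 lay nearer to the wild-type and 168 nearer to the homozygous level. Of all 14296 genes, 9175 lay nearer to wild-type. DESeq2 called 12 genes, 10 higher and 2 lower than the midpoint. One of the lower ones was Fabp5, at -1.54 (DESeq2 adjusted p = 0.025, edgeR adjusted p = 0.22), whose homozygous change against wild-type was -0.08. Cd5l, a secreted protein of resident Kupffer cells and a known LXR target of macrophages, had between 26.2 and 159 CPM in wild-type (median 43.6), between 22.5 and 104.5 CPM in heterozygous (median 51.6) and between 0.118 and 3.24 CPM in homozygous livers (median 0.495). The homozygous livers stood apart, and the other genotypes overlapped, with heterozygous animal 2 alone under the wild-type range. The heterozygous level exceeded the midpoint by 3.09 on the log2 scale (edgeR adjusted p = 2.0e-04). With limma voom the adjusted p was 0.083 and the gene was not called. The difference from wild-type was -0.24 (95% interval -1.02 to 0.54). Mean levels were 68.8 CPM in wild-type, 57.8 CPM in heterozygous and 0.863 CPM in homozygous livers. With a homozygous mean so near 0, the log2 midpoint lies far below the linear one, and the test used the log2 midpoint only.

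Cd163, the haemoglobin scavenger receptor of Kupffer cells, had between 2.88 and 11.4 CPM in wild-type (median 5.76), between 5.10 and 23.1 CPM in heterozygous (median 13.6) and a median of 1.02 CPM in homozygous livers. Animals 4, 6, 7 and 15 exceeded all wild-type livers. It lay 2.21 above the midpoint (adjusted p = 0.00055) and 1.16 above wild-type (95% interval 0.46 to 1.86, unadjusted p = 0.0024, adjusted p = 0.61), where the homozygous change was -2.10. The other 2 genes called were Adam11, a catalytically inactive member of the ADAM family, 0.99 above the midpoint (adjusted p = 0.039), and Kcnj16, a potassium channel subunit at less than 2 CPM in every liver, 2.51 above it (adjusted p = 0.039). Timd4, the phosphatidylserine receptor of embryonically derived Kupffer cells, was 1.45 above (edgeR adjusted p = 0.067, DESeq2 adjusted p = 0.0032). Of 11 genes of resident Kupffer cell identity, 7 had an unadjusted p under 0.05 in this test with edgeR, against 7.03% of all genes. Of these, edgeR called 2, against 0.028% of all genes. This list was chosen with earlier results of these data known, and the midpoint moves with the homozygous level of each member. These shares are therefore a description and not a test of the list. DESeq2 called 3 of the list (Cd163, Cd5l and Timd4) and limma voom 1 (Cd163). Against wild-type the list had a median of 0.14 in heterozygous and -0.30 in homozygous livers. The heterozygous median was 0.06 without heterozygous animal 6 and 0.32 without wild-type animal 14. The summed level of the list had medians of 456 CPM in wild-type, 505 CPM in heterozygous and 446 CPM in homozygous livers. The 5 members called in homozygous livers, all lower, were Cd5l, Cd163, Timd4, Clec4f and Folr2. Of all 14296 genes, 890 were called lower there. Clec4f had 0.08 and Folr2 -0.10 in heterozygous livers, with homozygous changes of -1.17 and -2.08. The remaining members were Marco, Vsig4, Slc40a1, Id3, Clec1b and C6. Their homozygous values lay between -0.30 (Marco) and 0.61 (Id3), and their heterozygous values between -0.32 (C6) and 1.12 (Marco). Only Cd5l and Cd163 were called in 11 of the 24 fits that left out 1 liver, and 0 genes were called when all 48 livers were fitted together.

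**Figure D4:**
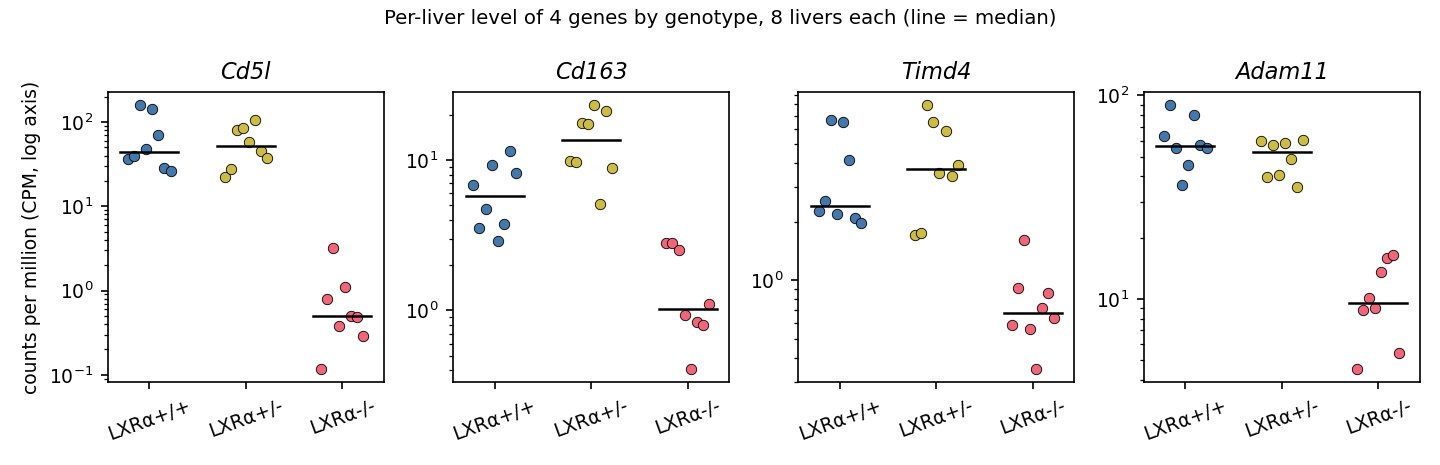
Normalised read count (CPM, log axis) of Cd5l, Cd163, Timd4 and Adam11 in each liver of the knockout study, by genotype. Heterozygous livers lie in or above the wild-type range for Cd163 and overlap it for the other genes, while homozygous medians are 0.495 CPM for Cd5l and 1.02 CPM for Cd163.

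Inflammatory genes had the largest median standard error of the 14 pathway lists (0.471). Of 23 tested, 21 had a positive value, with a median of 0.57 against -0.00 over all genes. That median was 0.31 without heterozygous animal 4 and 0.95 without wild-type animal 5. Of the 23, 7 had an unadjusted p under 0.05, all higher, against 441 of all 14296 genes. None passed the threshold with any of the 3 tools, and the median member needed a 9.14-fold change to do so. In homozygous livers 21 of the 23 were called higher, with a list median of 2.67, against 1520 of all 14296 genes called higher. Cd74, which chaperones MHC class II molecules as their invariant chain, had between 20.1 and 62.4 CPM in wild-type (median 39), between 41.0 and 308 CPM in heterozygous (median 75.5) and a median of 566 CPM in homozygous livers. Its log2 fold change was 1.52 (95% interval 0.69 to 2.35, adjusted p = 0.52). For H2-Aa, H2-Ab1 and H2-Eb1, the class II chains, the values were 1.46, 1.47 and 1.61, with adjusted p between 0.38 and 0.52.

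The sum of these 4 genes varied widely among the heterozygous livers. It lay between 55.1 and 151 CPM in wild-type livers. Heterozygous animals 4, 6, 9 and 7 had 735, 502, 280 and 243 CPM, above all wild-type livers, and animals 15, 16, 2 and 3 had between 108 and 151 CPM, inside the wild-type range. Animal 3, at 150.6 CPM, lay just under the highest wild-type liver, at 150.7 CPM. It exceeded all wild-type livers for H2-Ab1 and H2-Eb1. This grouping of animals rests on the same values and was not tested. The macrophage marker sum was 488 CPM in animal 4, 493 in animal 6, 340 in animal 7 and 618 in animal 9, and between 149 and 278 CPM in the other 4 heterozygous livers, but 2 wild-type livers had 503 and 527 CPM with class II sums of 85.8 and 107 CPM. The summed T cell markers were 16.5 CPM in animal 4 and 9.62 CPM in animal 6, where the highest wild-type liver had 7.41 CPM. All 7 T cell markers tested had positive values (median 1.16), and none was called by the 3 tools. Of the 7, 4 had an unadjusted p under 0.05, against 5.73% of all genes. The T cell genes rested on few reads, with Cd3e at 2 to 14 reads in wild-type and 2 to 40 in heterozygous livers. The part of these cells in the class II values was not tested. For B cell markers the wild-type livers had the higher median sum, 13.8 against 9.88 CPM, and a median log2 fold change of -0.05. The 10 macrophage markers had a median of 0.47. Of the remaining cell markers, 3 neutrophil genes had a median of 0.55, 8 stellate cell genes 0.22, 5 cholangiocyte genes 0.00, 8 endothelial genes 0.04, 5 erythroid genes -0.27, 4 adipocyte genes -0.24 and 5 proliferation genes 0.39, while 4 Y-linked genes had -0.06 and the 1 acinar gene tested, Cela1, -0.84. None of these genes was called between heterozygous and wild-type livers by any of the 3 tools. With edgeR, 3 of them, the macrophage genes included, had an unadjusted p under 0.05, against 5.73% of all genes.

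**Figure D5:**
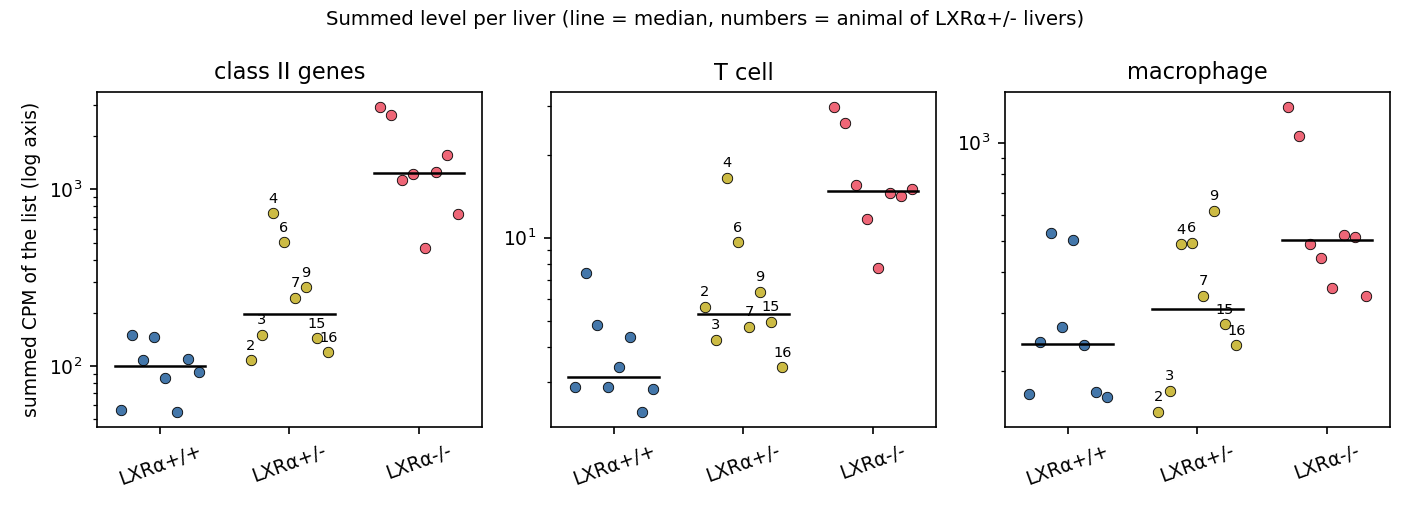
Summed CPM of 4 MHC class II genes (Cd74, H2-Aa, H2-Ab1, H2-Eb1), of 8 T cell markers and of 10 macrophage markers in each liver, by genotype, with heterozygous animals numbered. Animals 4, 6, 7 and 9 lie above every wild-type liver for the class II genes (243 to 735 CPM), and the wild-type and heterozygous ranges overlap for the macrophage markers.

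Ubd and Socs1, further genes with large homozygous rises, had smaller positive values in heterozygous livers and were not called there. Ubd, an interferon-inducible ubiquitin-like modifier, had between 1.98 and 29.4 CPM in heterozygous and between 0.651 and 6.17 CPM in wild-type livers, with a log2 fold change of 1.73 (unadjusted p = 0.0061, adjusted p = 0.77) against 4.87 in homozygous livers. Socs1, an inhibitor of cytokine signalling, had 2.04 (adjusted p = 0.62) against 4.42. The macrophage genes of lipid-laden livers were near 0 in median (0.00 over 12 genes), and their homozygous median was 1.54. The heterozygous median was -0.33 without heterozygous animal 9 and 0.31 without wild-type animal 23. Gpnmb, a lysosomal glycoprotein of lipid-associated macrophages, had between 0.126 and 29.4 CPM in heterozygous and between 0.195 and 8.67 CPM in wild-type livers. Animal 9 held the highest heterozygous value, and the homozygous livers had a median of 39.7 CPM. Trem2, a lipid-sensing receptor of the same cells, had -0.11 (95% interval -1.42 to 1.19), and -1.43 without heterozygous animal 9. Genes of fibrosis and stellate cell activation had a median of 0.25 over 17 genes, with 16 positive values, 0 called by any of the 3 tools and 0 at an unadjusted p under 0.05. That median was -0.11 without heterozygous animal 9 and 0.44 without wild-type animal 23.

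Genes near the targeted locus were examined because mice bred around an engineered allele keep flanking sequence from the strain in which it was made. Within 5 Mb of Nr1h3 51 genes other than Nr1h3 were tested and 0 were called by edgeR's quasi-likelihood test, DESeq2 or limma voom, with 3 (5.88%) at an unadjusted p under 0.05. Within 20 Mb there were 170 genes, 0 called by these tools and 8 (4.71%) at an unadjusted p. The same windows held 9 (17.6%) and 32 (18.8%) genes called in homozygous livers, near the 16.9% of all genes. The smallest p belonged to Ttc17 and Madd, with log2 fold changes of -0.24 and 0.28 (edgeR adjusted p = 0.61 and 0.71). Both were called in homozygous livers, at -0.35 and 0.26 (edgeR adjusted p = 0.0012 and 0.041). Madd, which ends at 91014368, lies directly beside Nr1h3.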

How the data were processed

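Liver mRNA of 48 mice was sequenced, 8 per genotype in each of a knock-in (DN) and a knockout (KO) study, and the 24 knockout livers were used here. The authors made stranded libraries, aligned the reads with STAR 2.5.0a to GRCm39 and deposited the raw count of every gene in each liver, not normalised. Of the strand-specific counts, those of the sense strand were taken, 7.23 to 8.46 times the antisense total in the 16 wild-type and heterozygous livers. Between 24.0% and 33.0% of the reads of these livers named no gene and were left out. Symbols and positions came from GENCODE, which held 54749 of the 55416 identifiers (98.8%).

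Genotypes were taken from the labels. The test was that of edgeR 4.0.16 under R 4.3.3 (filterByExpr, TMM scaling, 3 genotype means, quasi-likelihood test, residual degrees of freedom 21, Benjamini-Hochberg adjusted p under 0.05), and the model was tested on simulated data. Every p in the text comes from this fit unless another tool is named. Standard errors and 95% intervals are Wald values of the fit, per gene and without adjustment over genes, and detectable sizes were computed from them for 80% power. The permutation test used log2(CPM + 0.5). DESeq2 1.42.0, the tool of the authors, and limma voom 3.58.1 were alternatives, with other scalings, filters, samples and the omission of each liver. Promoters came from RefSeq.

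The genes named are Nr1h3 and overlapping genes, members of the lists, genes called, the 5 higher and 5 lower uncalled genes of smallest p with a mean log2 CPM above 1, the 5 of smallest p within 20 Mb of Nr1h3, the 10 of smallest p against the midpoint, and the 5 largest rises and falls of homozygous livers. Ccr3, with a mean log2 CPM under 1, was named after its values were seen. Some genes that the rule allows are not reported here. The members and the 14 pathway and 13 marker lists were chosen with earlier results of these data known. The study pooled its knockout mice over more than 1 cohort. The labels give no cohort, so it was not modelled, and the p-values measure the spread between these mice.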

Additional observations from a re-analysis of the deposited data

Results flagged for a closer look

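In each genotype of 8 livers, the lowest and the highest liver were compared with the rest by Dixon's criterion for the named genes, list sums and depth. Chance alone marks about 1 in 20 groups, and 16 of 230 groups were marked. Heterozygous animal 15 had the lowest Abcg5 at 194 CPM (the others 308 to 338), Abcg8 at 188 CPM (270 to 325) and Srebf1 at 349 CPM (495 to 612).

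Heterozygous animal 9 stood apart in several genes of liver metabolism. It had the lowest Cyp8b1, the sterol 12α-hydroxylase, at 46.5 CPM (the others 273 to 444), the lowest Cyp2c29 at 452 CPM (1220 to 1840), the lowest Nr1i3, the xenobiotic receptor CAR, at 232 CPM (404 to 563), and the lowest sum of bile acid genes at 5490 CPM (7260 to 8600). Its summed lipid-associated macrophage genes were the highest at 498 CPM (182 to 274). Reads on genes were lowest in heterozygous animal 3, at 5332897.

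Among wild-type livers, animal 23 had the lowest Ces2a at 153 CPM (the others 252 to 334), the highest Abcb1a at 24.4 CPM (3.51 to 5.73), the highest summed fibrosis genes at 330 CPM (106 to 165) and the highest summed cholangiocyte markers at 95 CPM (23.8 to 44.7). Wild-type animal 5 had the highest Cxcl9 at 62.2 CPM (6.83 to 18), animal 14 the lowest Bmal1 at 0.521 CPM (1.44 to 3.47), and animal 1 the highest summed pancreatic acinar markers at 370 CPM (7.45 to 22). No cause was tested for any of these.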

How the results depend on the processing

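Nr1h3 was called under every alternative run, with log2 fold changes between -0.69 and -0.62. The count of genes called between heterozygous and wild-type livers was 3, and it was 11 with DESeq2, 7 at an adjusted p under 0.1 and 1 in the 16 livers alone, where Apol7e was not tested. It lay between 2 and 5 when 1 liver was left out. Without the shallow heterozygous animal 3 it was 4 (Apol7e, Cyp3a11, Cyp3a59 and Nr1h3), and without heterozygous animal 9 it was 5 (these and Ccr3). The count of genes off the midpoint was 4, and it was 12 with DESeq2, 2 where genes needed a mean CPM of 1, 0 over all 48 livers and between 2 and 5 when 1 liver was left out. The median standard error was 0.128, and 0.516 with DESeq2 and 0.307 without the low-count filter. The detectable log2 change at an unadjusted p then became 1.45 and 0.890, and after adjustment 2.91 and 2.09. Both settings tested more genes of low counts, 30153 and 24276. Genes with an interval within 2-fold numbered 12491 to 12675 when 1 liver was left out. No result past the threshold changed direction, while uncalled values, Cd5l against wild-type among them, changed sign in some fits. Gpnmb, with a log2 fold change of 0.76, lay between -1.32 (without heterozygous animal 9) and 1.26 (without wild-type animal 14), and the median of the fibrosis list, 0.25, between -0.11 (without heterozygous animal 9) and 0.44 (without wild-type animal 23). The test against the midpoint was not run in the 16 livers alone. No paired analysis was possible because the labels give the mice no number shared between genotypes. A gene under 1 CPM rests on few reads at this depth, which limits Apol7e, Ccr3 and the T cell genes.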

Other observations

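Since Cyp3a11, Cyp3a59 and Slco1a4 are known targets of the xenobiotic receptors PXR and CAR, other genes of that kind were read after these values were seen, and are given as values with no explanation. The receptors themselves were near wild-type levels in heterozygous livers, with log2 fold changes of -0.07 for Nr1i2 (PXR, 95% interval -0.32 to 0.18) and -0.06 for Nr1i3 (CAR, -0.42 to 0.31). Within the Cyp3a family, Cyp3a25 had 0.28 (unadjusted p = 0.012, edgeR adjusted p = 0.83) and Cyp3a13 had 0.04 (95% interval -0.17 to 0.26). Cyp3a16, Cyp3a41a, Cyp3a41b and Cyp3a44 had at most 3 reads in any wild-type or heterozygous liver. Cyp2b10 had 1.53 (unadjusted p = 0.035), with between 2.83 and 35.9 CPM in heterozygous and between 0.408 and 16.2 CPM in wild-type livers, Cyp2c55 had 0.85 (unadjusted p = 0.014), Ces2a 0.39 (unadjusted p = 0.0053), Cyp2c29 0.33 and Abcb1a 0.54. Without wild-type animal 23 the value of Abcb1a was 1.16 (edgeR adjusted p = 0.13). None of these passed the adjusted threshold.

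H2-M2, a non-classical class I gene with near-identical relatives whose count is therefore uncertain, rose in homozygous livers with a log2 fold change of 6.37. It had 22 reads over the wild-type livers, 154 over the heterozygous and 1961 over the homozygous livers. The heterozygous reads were uneven, with 64 in the highest liver and 1 in the lowest, and animals 4, 6, 7 and 9 exceeded all wild-type livers. These are the animals with the highest MHC class II sums. The log2 fold change in heterozygous livers was 2.78 (95% interval 1.11 to 4.44, unadjusted p = 0.00059, edgeR adjusted p = 0.38).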
